A study of Homo sapiens with 2 samples.

Results

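IFIT-OASL burst cells were cells of the human breast cancer line MDA-MB-231 in which the transcripts of IFIT1, IFIT2, IFIT3 and OASL, read together, reached at least 5 of every 10000 UMIs of the cell. A UMI (unique molecular identifier) stands for 1 captured RNA molecule in droplet sequencing. Barcodes counted as cells above a UMI minimum set for each library, if they had 500 genes or more and if mitochondrial genes took no more than 20% of their UMIs. By this rule 808 of 19979 cells were burst cells, 497 of 12487 at D21 and 311 of 7492 at D0. Burst cells were thus chosen by the measured counts of the 4 gate genes, so the levels of these genes are the selection itself, and every contrast of burst cells with other cells in the same library is given below as a description without a test.

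The study asked how reversion of methionine dependence changes gene expression programmes, and sequenced 1 library of each condition with the 10x Genomics 3′ kit. D21 cells were revertant MDA-MB-231 cells, selected for 21 days in RPMI-1640 medium without methionine that held 100 µM L-homocysteine and 1.5 µM vitamin B12 as cyanocobalamin. D0 cells were the parental MDA-MB-231 cells in RPMI-1640 medium with 100 µM methionine. Both media were custom-made RPMI with dialysed, heat-inactivated fetal bovine serum and penicillin-streptomycin. Both groups are a single tumour line, a model of triple-negative breast cancer without immune or stromal cells, and the medium, the time in culture and the library differ together between them. The labels do not give the vitamin B12 content of the D0 medium. With 1 library per condition there is no replicate spread, so no p-value is given, and all intervals (95%, exact) cover counting error only and not the spread between cultures.

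Interferons are secreted alarm proteins that bind receptors at the cell surface, where JAK kinases and transcription factors, STAT2 and IRF9 among them, carry the signal to antiviral genes. The same genes can be switched on inside a cell without interferon, when RNA or DNA sensors activate the transcription factors IRF3 and NF-kappa B. The IFIT proteins bind viral RNA and hamper its translation, and OASL enhances RNA sensing by RIG-I. Both routes meet at a promoter sequence called the interferon-stimulated response element, which carries repeats of GAAA.

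The gate left a population with many antiviral transcripts but with almost no interferon transcripts. Of 21 interferon ligand genes, IFNL1 alone had UMIs in burst cells, 8 UMIs in 5 cells at D21 and 1 UMI in 1 cell at D0. For this reason the cells are called burst cells by their gate genes and not by a source of interferon. Vimentin, CD44, AXL, EGFR and KRT18, markers of MDA-MB-231, summed to 4725 CPM (UMIs of the gene per 1000000 UMIs summed over the cells) in burst cells and 4661 CPM in other cells at D21. The same sums were 6035 CPM in burst cells and 5814 CPM in other cells at D0, so burst cells carried the markers of the line. The 8 leukocyte markers, among them those of plasmacytoid dendritic cells (LILRA4 and CLEC4C), summed to 2.35 CPM in burst cells and 1.39 CPM in other cells at D21, and to 1.12 CPM and 1.78 CPM at D0, with 5 of the 8 at 0 in the burst cells of each library. The 3 endothelial markers summed to 8.49 CPM in burst and 6.66 CPM in other cells at D21, and 12.9 CPM and 8.99 CPM at D0. The 4 fibroblast markers stayed at or under 2.12 CPM and the luminal markers ESR1 and PGR together at or under 0.914 CPM in every group.

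The promoters of the leading genes are shown first, because the letters GAAANNGAAA, the core of the response element, recurred in them. The sequences are RefSeq windows on build GRCh38.p14, read 5′ to 3′ on the strand of the gene, with each match to GAAANNGAAA in either direction in capitals. Matches may overlap. The bases before the start site are given for the gate genes IFIT1 and IFIT3, for 3 leading genes of burst cells (ISG15, RSAD2 and ZC3HAV1), and for CH25H, the gene with the highest ratio.
IFIT1, chr10:89392373-89392622, plus strand: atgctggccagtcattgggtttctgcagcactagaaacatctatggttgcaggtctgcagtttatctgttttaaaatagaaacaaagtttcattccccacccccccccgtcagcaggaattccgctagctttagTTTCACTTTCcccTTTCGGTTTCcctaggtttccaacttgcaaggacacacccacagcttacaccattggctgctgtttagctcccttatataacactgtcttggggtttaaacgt
IFIT3, chr10:89327747-89327996, plus strand: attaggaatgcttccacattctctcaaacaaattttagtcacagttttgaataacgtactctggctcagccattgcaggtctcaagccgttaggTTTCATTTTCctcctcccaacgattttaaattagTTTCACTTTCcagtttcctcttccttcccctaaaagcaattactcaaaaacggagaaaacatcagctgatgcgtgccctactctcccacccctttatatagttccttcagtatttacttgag
ISG15, chr1:1013247-1013496, plus strand: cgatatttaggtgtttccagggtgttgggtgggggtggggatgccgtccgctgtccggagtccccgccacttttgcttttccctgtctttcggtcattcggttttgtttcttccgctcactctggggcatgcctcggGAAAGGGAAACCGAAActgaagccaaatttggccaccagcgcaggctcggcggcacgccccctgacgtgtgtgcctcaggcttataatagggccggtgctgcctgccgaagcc
RSAD2, chr2:6877527-6877776, plus strand: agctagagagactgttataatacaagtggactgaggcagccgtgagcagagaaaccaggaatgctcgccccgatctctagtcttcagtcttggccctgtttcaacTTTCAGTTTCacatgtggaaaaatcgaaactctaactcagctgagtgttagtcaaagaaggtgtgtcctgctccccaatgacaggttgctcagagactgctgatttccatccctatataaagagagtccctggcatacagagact
ZC3HAV1, chr7:139109721-139109970, minus strand: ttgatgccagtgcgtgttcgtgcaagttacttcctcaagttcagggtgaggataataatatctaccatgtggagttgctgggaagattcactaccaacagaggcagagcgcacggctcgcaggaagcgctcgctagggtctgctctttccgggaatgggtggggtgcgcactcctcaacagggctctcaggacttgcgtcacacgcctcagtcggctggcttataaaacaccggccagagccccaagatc
CH25H, chr10:89207318-89207567, minus strand: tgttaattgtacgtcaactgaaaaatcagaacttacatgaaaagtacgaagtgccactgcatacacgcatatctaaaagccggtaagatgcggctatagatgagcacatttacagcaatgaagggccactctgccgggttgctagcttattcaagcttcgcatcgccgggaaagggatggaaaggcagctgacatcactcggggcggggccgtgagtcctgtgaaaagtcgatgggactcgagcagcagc
In these runs IFIT1, IFIT3 and ISG15 each held 2 matches, and RSAD2 held 1. RSAD2 also had another window without a match. ZC3HAV1 and CH25H had no match in the window, nor did the leading genes HERC6 and HS6ST3, which are not shown. Stretches of 60 bases show matches in the other leading genes that held any. They are also given for CXCL10, a secreted chemokine discussed below, and for IFNL1, the sole ligand with UMIs in burst cells.
IFIH1, chr2:162318806-162318865, minus strand: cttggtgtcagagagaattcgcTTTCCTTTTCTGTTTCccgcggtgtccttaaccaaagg
IFI44, chr1:78649729-78649788, plus strand: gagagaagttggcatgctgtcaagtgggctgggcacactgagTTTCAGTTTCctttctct
HERC5, chr4:88456972-88457031, plus strand: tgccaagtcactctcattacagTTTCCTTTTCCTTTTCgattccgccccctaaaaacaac
DDX60, chr4:168318789-168318848, minus strand: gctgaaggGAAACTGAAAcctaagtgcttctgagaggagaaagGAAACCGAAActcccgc
ISG20, chr15:88638922-88638981, plus strand: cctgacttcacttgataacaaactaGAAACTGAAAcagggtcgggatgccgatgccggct
EPSTI1, chr13:42992257-42992316, minus strand: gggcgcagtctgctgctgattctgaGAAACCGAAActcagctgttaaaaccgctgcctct
CXCL10, chr4:76023684-76023743, minus strand: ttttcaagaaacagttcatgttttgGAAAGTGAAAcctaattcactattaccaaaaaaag
IFNL1, chr19:39296171-39296230, plus strand: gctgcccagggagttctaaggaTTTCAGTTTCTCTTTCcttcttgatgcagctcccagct
IFIH1 and HERC5 each held a further match outside the stretch. The matches shown lay between 221 bases (CXCL10) and 18 bases (IFI44) before the start site of the window shown. IFI44 also had another window, with a start site farther from the same match. Counted over windows of 300 bases (250 before and 50 after the start), 8 of the 12 leading genes held the core (66.7%). A gene with several windows counted if any of them held it, here and in the shares that follow. Of all 82 genes at least 2-fold higher in the burst cells of both libraries, 68 had a window and 18 of these held the core (26.5%), against 219 of 5382 genes past the expression floor (4.07%) and 1195 of 27305 genes with a window (4.38%). The core was in 13 of 20 higher genes from the antiviral, sensor and signalling lists (65.0%) and in 5 of the other 48 (10.4%). The kappa B consensus was searched on the strand of the gene only, so sites in the other direction were not counted. Read this way, it was in 7 of the 68 higher genes (10.3%), against 12.8% of the genes past the floor. Of the 82, 43 passed the expression floor in burst cells alone in both libraries. A match is a match of letters and not a measured binding site.

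Burst cells made up 3.98% of cells at D21 (Clopper-Pearson interval 3.64 to 4.34) and 4.15% at D0 (3.71 to 4.63). The intervals overlapped. The share follows the threshold, with 6.96% and 6.69% at 3 gate UMIs per 10000 and 2.38% and 2.68% at 10 per 10000. Burst cells held 59.9% of all gate UMIs at D21 and 62.9% at D0. The median burst cell had 12.2 gate UMIs per 10000 at D21 and 14.4 at D0, and the highest had 158 and 162. Most burst cells had transcripts of several gate genes: all 4 genes were seen in 278 of 497 cells at D21 (55.9%) and 215 of 311 at D0 (69.1%), and 1 gate gene alone in 17 and 0 cells. Among other cells, 58.5% at D21 and 51.2% at D0 had no gate UMI.

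**Figure D1:**
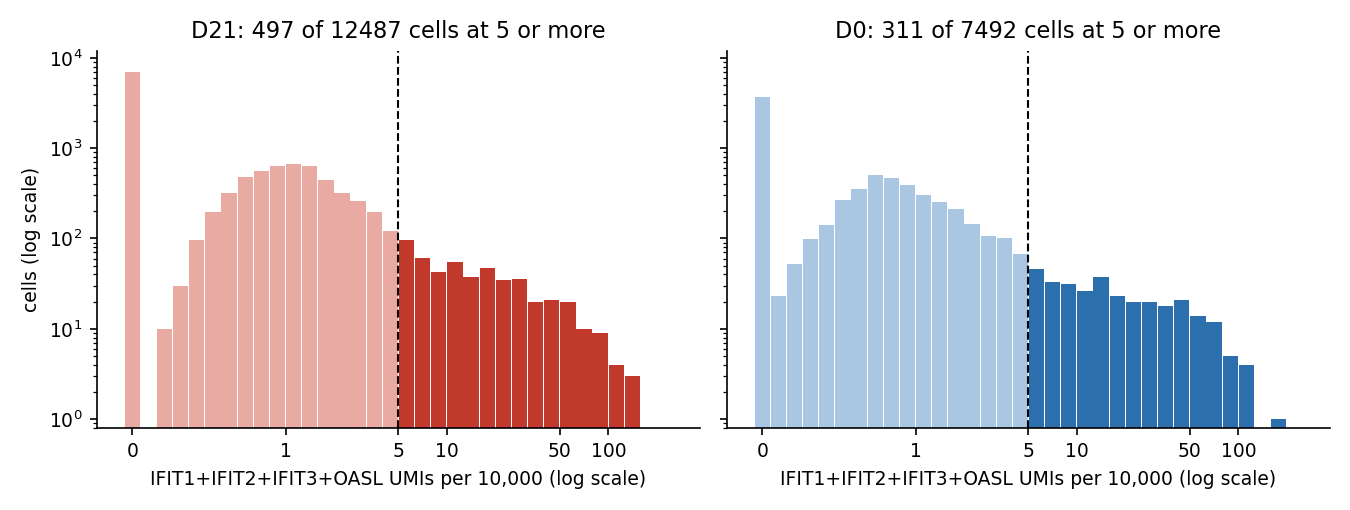
Number of cells (log scale) by gate-gene UMIs per 10000 UMIs of the cell (log scale, the leftmost bar holds cells without a gate UMI), D21 on the left and D0 on the right. Dark bars at and above the dashed line at 5 are burst cells, 497 at D21 and 311 at D0, and the counts fall across the line without a gap.

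The histogram of gate levels showed a continuous tail, so the threshold divides a range and not 2 separated populations. Just inside it, 79 D21 and 37 D0 cells had 5 to under 6 gate UMIs per 10000, and just outside it 114 D21 and 65 D0 cells had 4 to under 5. ISG15 stood at 988 CPM in the cells just inside and 813 CPM in those just outside at D21, and at 942 and 672 CPM at D0. ZC3HAV1 stood at 313 CPM just inside and 241 CPM just outside at D21, and at 341 and 378 CPM at D0. HERC5 stood at 89.4 CPM just inside and 72.7 CPM just outside at D21, and at 58.2 and 58.5 CPM at D0. IFI44 stood at 93.9 CPM just inside and 58.1 CPM just outside at D21, and at 89.8 and 71.5 CPM at D0. ZC3HAV1 and HERC5 at D0 apart, these levels were higher just inside the line. When each gate gene was left out of the gate in turn and read as a level, IFIT1 stood at 409.8 CPM in burst cells and 7.48 CPM in other cells at D21, and at 550.3 and 10.3 CPM at D0. OASL, read the same way, stood at 259 CPM in burst and 5.63 CPM in other cells at D21, and at 322 and 4.93 CPM at D0. The IFIT genes are similar in sequence, so reads may be shared among them and their levels may not be independent. This does not cover OASL, which is not an IFIT gene.

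Burst and other cells were close in depth and in mitochondrial share. The median depth of burst cells was 12922 UMIs against 11990 in other cells at D21, and 19766 against 18869 at D0. Mitochondrial genes took 6.46% of UMIs in the median burst cell and 6.62% in the median other cell at D21, and 5.84% and 5.75% at D0. Summed over cells, the burst profile rested on 7659001 UMIs at D21 and 8011683 at D0, and the other profile on 175180047 and 175086433. The libraries shared 21 cell barcodes, of which 2 were a burst cell in at least 1 library and 0 in both. The doublet caller marked 1 of 12487 cells at D21 and 0 of 7492 at D0, which is too few for it to have worked, and doublets were kept.

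In the comparison of burst with other cells, a gene needed 20 CPM in either group. At D21, 111 of 6810 such genes (1.63%) were at least 2-fold higher in burst cells and 1 (0.0147%) was at or below 0.5. At D0, 96 of 6883 (1.39%) were at least 2-fold higher and 0 (0%) at or below 0.5. Both libraries agreed on 82 of 6556 genes (1.25%) higher and 0 (0%) lower. Of the 82, 22 genes were at least 5-fold and 11 at least 10-fold higher in both libraries, against a median log2 ratio over all genes of -0.03 at D21 and -0.07 at D0. Of the higher genes, 59 at D21 and 54 at D0 passed the floor in burst cells alone, and those had to differ. This held in both libraries for 43 of the 82. Without the burst cells at or above 20 gate UMIs per 10000 the count of 82 fell to 34, all of them among the 82, so the number of genes rests on the strongest cells. It was 53 with a threshold of 3 gate UMIs per 10000 and 45 with a floor of 50 CPM. With no floor but 20 UMIs, 343 genes were at least 2-fold higher and 296 at or below 0.5 in both libraries, so the excess of higher over lower genes is that of genes past the floor.

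Most of the 12 leading genes were antiviral effectors, with the sensor IFIH1 and the sulphotransferase HS6ST3 apart. ISG15 and ZC3HAV1 excepted, the 12 were under the floor in other cells. They passed it through burst cells alone and so had to differ. ISG15, a ubiquitin-like protein joined to viral and host proteins, stood at 2259 CPM in burst cells and 214 CPM in other cells at D21, and at 2004 CPM and 148 CPM at D0. Its ratio was 10.5 (interval 10.3 to 10.7) at D21 and 13.6 (13.3 to 13.8) at D0. Barcodes with 10 to 100 UMIs, which hold mostly free RNA, had ISG15 at 501 CPM at D21 and 313 CPM at D0. These levels were above those of other cells and below those of burst cells, and the part of free RNA in the level of other cells was not tested.

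ZC3HAV1, the zinc-finger antiviral protein that binds CpG-rich RNA, stood at 879 CPM in burst cells and 55.1 CPM in other cells at D21, and at 882 CPM and 51.1 CPM at D0. The ratios were 16 (15.5 to 16.5) at D21 and 17.2 (16.7 to 17.8) at D0, with 37.3 CPM and 47.1 CPM in the near-empty barcodes. HERC5, the ligase that attaches ISG15, stood at 291 CPM in burst and 18.4 CPM in other cells at D21, and at 246 and 17.9 CPM at D0. Its neighbour and relative HERC6 was 14.2 times as high in burst as in other cells at D21 and 17.3 times at D0.

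CH25H, which makes the antiviral oxysterol 25-hydroxycholesterol, had the largest ratio and the sparsest counts. It stood at 20.5 CPM in burst cells and 0.0400 CPM in other cells at D21, and at 21.0 and 0.0400 CPM at D0, so that the ratios of 513 (243 to 1297) and 524 (249 to 1325) rest on 7 UMIs in the other cells of each library. Without the burst cells at or above 20 gate UMIs per 10000 they were 88.2 and 73.7. CH25H was seen in 9.86% of burst cells and 0.0584% of other cells at D21, and in 12.5% and 0.0975% at D0, with 0.966 CPM and 0.235 CPM in the near-empty barcodes. Most of its UMIs came from a minority of burst cells, at the upper end of the gate. RSAD2 (viperin), an enzyme that makes a chain-terminating nucleotide, stood at 53 CPM in burst and 0.582 CPM in other cells at D21, and at 40.2 and 0.194 CPM at D0. Its ratios of 91.0 and 207 were 50.4 and 89.1 without those cells.

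**Figure D2:**
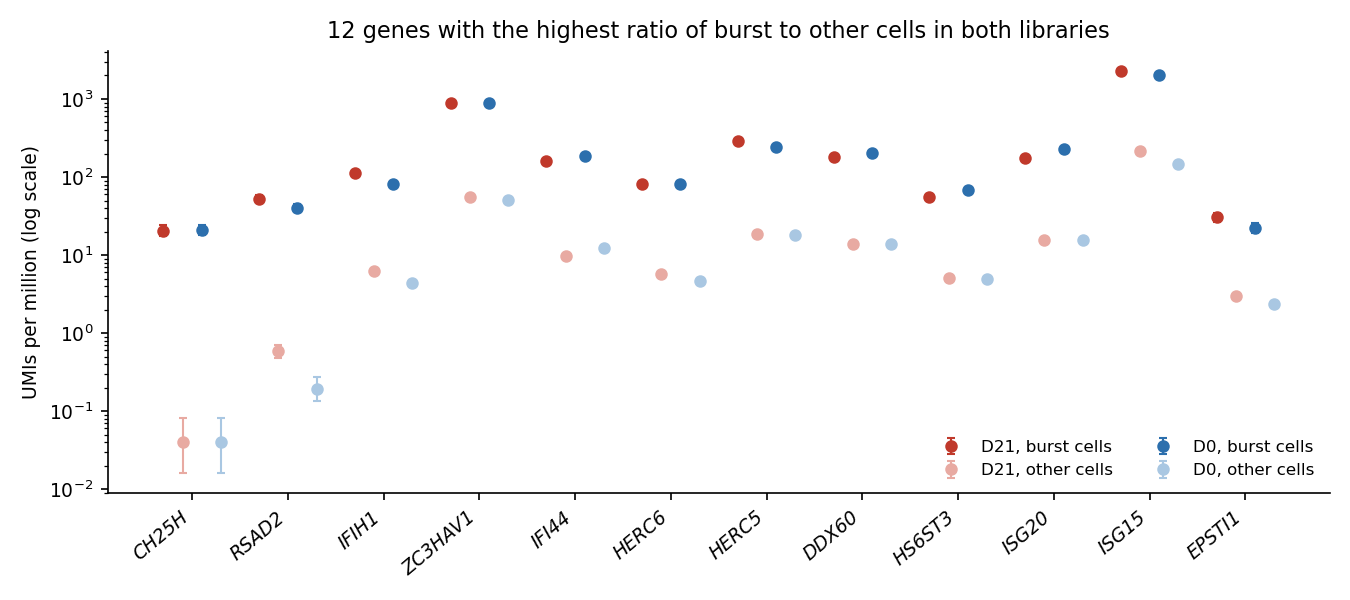
CPM (log scale) of the 12 genes with the highest ratio of burst to other cells, for burst and other cells at D21 (dark and light red) and at D0 (dark and light blue), each point 1 summed profile with its exact 95% counting interval. ISG15 is the most abundant, at 2259 and 2004 CPM in burst cells, and CH25H has the widest gap, 20.5 CPM against 0.0400 CPM at D21.

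IFI44, DDX60, ISG20, EPSTI1 and HS6ST3 had ratios of burst to other cells between 9.44 and 16.6. IFI44, an interferon-induced protein, stood at 162 CPM in burst and 9.79 CPM in other cells at D21, and at 186 and 12.2 CPM at D0. DDX60, a helicase that aids RNA sensing and that has the close paralogue DDX60L, stood at 182 and 13.7 CPM at D21 and 203 and 13.7 CPM at D0. ISG20, an exonuclease that degrades single-stranded RNA, stood at 175 and 15.8 CPM at D21 and 231 and 15.6 CPM at D0. EPSTI1 was the least abundant of this group, at 30.7 CPM in burst and 3.01 CPM in other cells at D21 and 22.2 and 2.35 CPM at D0. One leading gene is not a known antiviral gene: HS6ST3, a heparan sulphate 6-O-sulphotransferase, stood at 55.9 CPM in burst and 5.05 CPM in other cells at D21, and at 69.1 and 4.96 CPM at D0.

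Across the list of 62 antiviral effectors, gate genes aside, 43 passed the floor at D21, 42 of them with a ratio above 1 and 22 at least 2-fold higher, with a median log2 ratio of 1.01. At D0, 39 passed, 36 were above 1 and 18 at least 2-fold higher, with a median of 0.66. Of those that passed, 18 at D21 and 16 at D0 did so in burst cells alone. Over all genes past the floor, 41.8% at D21 and 35.8% at D0 had a ratio above 1. At least 2-fold higher were 1.63% and 1.39% of them. The list split by gene: MX1, a GTPase that blocks viral replication, had ratios of 3.64 and 3.46 (D21 and D0), OAS1, a synthase of the RNase L activator, 7.49 and 11.2, and GBP4, a guanylate-binding protein, 10.9 and 9.04. MX1 and OAS1 were under the floor in at least 1 library and so are not among the 82 higher genes. GBP4 passed the floor in burst cells alone and so had to differ. IFI27 had ratios of 1.42 and 1.56 and IFITM3, which hampers viral entry, 1.43 and 1.58, although both were abundant in other cells, IFITM3 at 480.4 CPM at D21 and 387 CPM at D0. PNPT1, an RNA-degrading enzyme of mitochondria, lay below 1 in both, with ratios of 0.783 and 0.632. SAMD9, which has the paralogue SAMD9L beside it, had ratios of 9.08 and 8.46, and PARP14 of 3.60 and 3.11.

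Interferon ligand transcripts were rare or not detected. IFNL1, which signals at epithelial surfaces through IFNLR1 and IL10RB, stood at 1.04 CPM in D21 burst cells from 8 UMIs, against 1 UMI in all D21 other cells, a ratio of 183 with an interval of 24.5 to 8119. At D0 it had 1 UMI in burst cells and 0 in other cells, and no fold is given. IFNB1, the first interferon made by most infected cells, had 0 UMIs in all 4 groups, and so did every IFNA gene. For a gene without UMIs, a count of 0 allows up to 0.392 CPM or 0.604% of cells with a UMI in D21 burst cells, and 0.374 CPM or 0.965% in D0 burst cells. IFNK had 1 UMI, in D21 other cells.

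No interferon receptor gene named here was 2-fold higher in burst cells. IFNAR1 stood at 36.9 CPM in burst and 38.9 CPM in other cells at D21, and at 33.5 and 34.6 CPM at D0, and IFNAR2 had ratios of 0.991 and 1.04. IFNLR1 was near 1 CPM, at 0.914 CPM in burst and 1.01 CPM in other cells at D21 and 1.62 and 1.72 CPM at D0. Its partner IL10RB had ratios of 1.13 and 1.19, and the interferon gamma receptor genes IFNGR1 and IFNGR2 of 1.23 and 1.29 at D21 and 1.13 and 1.23 at D0.

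Of the RNA sensors IFIH1 stood among the 12 leading genes, and the adaptors through which RNA sensors act did not. IFIH1 (MDA5), the sensor of long double-stranded RNA, stood at 112 CPM in burst and 6.28 CPM in other cells at D21 and 81.9 and 4.41 CPM at D0, ratios of 17.8 (16.2 to 19.5) and 18.5 (16.7 to 20.6). DDX58 (RIG-I), which binds short RNA with a 5′ triphosphate, stood at 238 and 24.9 CPM at D21 and 209.8 and 26.1 CPM at D0. DHX58 (LGP2), their regulator, stood under the floor at 12.4 CPM in burst and 1.10 CPM in other cells at D21 and 18.5 and 1.34 CPM at D0. The 3 RNA sensors were thus each at least 8.04 times as high in burst cells of both libraries.

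The DNA sensor AIM2 had ratios of 4.38 and 4.22, and TMEM173 (STING), the adaptor of cytosolic DNA sensing, of 2.31 and 2.64. CGAS, the enzyme upstream of STING, had ratios of 0.847 and 0.872, and IFI16 of 1.19 and 1.32, so the DNA-sensing genes did not move as a block. The adaptors and kinases MAVS, TBK1, IKBKE, TRAF3 and TICAM1 had ratios between 0.801 and 1.24. MAVS, the mitochondrial adaptor of RIG-I and MDA5, stood at 29.2 CPM in burst and 28.3 CPM in other cells at D21 and 27.1 and 30.0 CPM at D0. The kinase TBK1, which phosphorylates IRF3, had ratios of 1.01 and 0.931, and its relative IKBKE of 1.24 and 0.900. TRAF3 had ratios of 0.881 and 0.801, TICAM1 of 1.15 and 1.18, and TLR3, at 4.44 CPM in D21 burst cells, of 1.99 and 1.86. ZBP1 was at 0.392 CPM in D21 burst cells, at 0 in D0 burst cells and at 0.00571 CPM in other cells of both. In all, 9 of the 14 genes of the list passed the floor in each library. Of these, 4 were at least 2-fold higher (2 with a floor of 50 CPM), against 1.63% of all genes at D21 and 1.39% at D0. Median log2 ratios were 0.25 at D21 and 0.40 at D0. IFIH1, AIM2 and TMEM173 passed the floor in burst cells alone.

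Most interferon signalling genes that passed the floor were less than 2-fold higher in burst cells. Of 20, 12 passed the floor in each library and 3 were at least 2-fold higher in each, against 1.63% and 1.39% of all genes. Median log2 ratios were 0.33 at D21 and 0.27 at D0. The 3 were JAK2, IRF1 and STAT2, of which JAK2 and STAT2 passed the floor in burst cells alone and so had to differ. With a floor of 50 CPM 1 was left in each library, and at D0 the count was 1 with a threshold of 3 gate UMIs per 10000 and 0 without the burst cells at or above 20 per 10000. IRF1, a fast-acting interferon regulatory factor, stood at 114 CPM in burst and 49.6 CPM in other cells at D21 and at 94.1 and 42.4 CPM at D0. The transcript C5orf56 overlaps it on the opposite strand, and whether any reads were shared was not tested. STAT2 stood at 36.2 and 15.4 CPM at D21 and 27.8 and 13.1 CPM at D0, and JAK2 at 27.8 and 10.7 CPM and at 24.3 and 11.2 CPM.

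IRF9, the DNA-binding partner of STAT2, had ratios of 1.57 and 1.66, and IRF7, the amplifier of the interferon alpha genes, of 1.15 (0.906 to 1.44) and 1.40 (1.16 to 1.67). Other factors and kinases had lower ratios than JAK2, IRF1 and STAT2. IRF3 had ratios of 1.15 and 1.17, IRF2 of 1.47 and 1.38, and IRF5 stayed under 1 CPM in every group. JAK1 had ratios of 1.21 and 1.13, TYK2 of 0.952 and 0.997, and STAT3 of 1.06 and 0.965. The feedback inhibitors SOCS1 and SOCS3 had ratios of 1.17 and 1.18 at D21 and 1.07 and 1.21 at D0. Beside the more than 10-fold ratios of IFIH1, ZC3HAV1 and ISG15 in both libraries, the ratio of IRF9 was small.

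**Figure D3:**
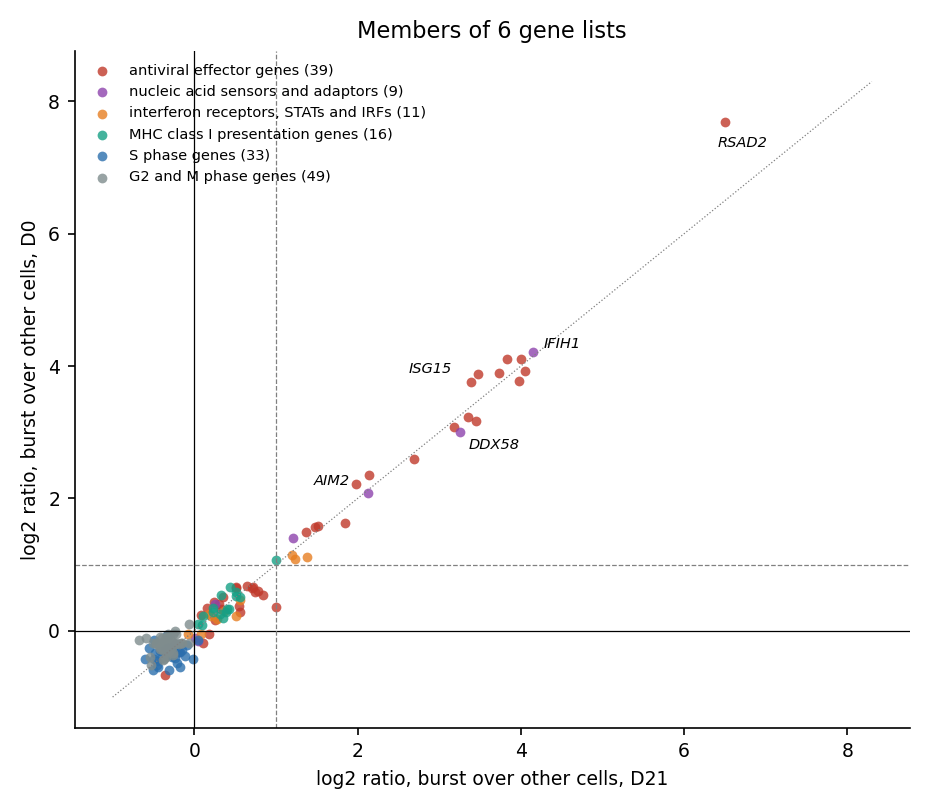
log2 ratio of burst to other cells at D21 (horizontal) and at D0 (vertical) for the members of 6 gene lists past the floor in both libraries, the number of points in parentheses; dashed lines mark 2-fold and the dotted line equal ratios. RSAD2 stands at the upper right, with ratios of 91.0 and 207, and the cell cycle genes lie mostly below 0 on both axes.

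Secreted signals were found in few burst cells. CXCL10, a chemokine that draws T cells, stood at 24.2 CPM in burst and 0.537 CPM in other cells at D21, and at 3.62 and 0.148 CPM at D0. Its UMIs came from 43 burst cells at D21, 1 of which held 48 of the 185 UMIs, and from 10 at D0, 1 of which held 8 of 29. Without that cell the level was 18.0 CPM at D21, under the floor, and 2.62 CPM at D0.

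CXCL11, a chemokine for the same receptor, stood at 19.7 CPM in burst and 0.548 CPM in other cells at D21 and at 8.99 and 0.131 CPM at D0, from 65 and 33 burst cells. CCL5 stood at 17.6 and 0.662 CPM at D21 and at 4.37 and 0.194 CPM at D0, from 45 and 17 burst cells. CX3CL1 stood at 3.00 and 0.343 CPM at D21 and 3.87 and 0.400 CPM at D0. The near-empty barcodes held at most 1.93 CPM of CXCL10, CXCL11 and CCL5. These 4 chemokines were thus rare in other cells and present in a minority of burst cells.

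Other cytokines were more widespread. TNFSF10 (TRAIL), a death ligand, stood at 465 CPM in burst and 204 CPM in other cells at D21 and at 299 and 139 CPM at D0. IL6 had ratios of 2.56 and 2.77 and IL15, which sustains lymphocytes, of 2.43 and 2.08. CXCL8, a target of NF-kappa B that draws neutrophils, stood at 24.2 CPM in burst and 26.0 CPM in other cells at D21 and at 5.99 and 13.6 CPM at D0. Of the 25 genes of the list, 8 passed the floor at D21 and 4 were at least 2-fold higher (median log2 ratio 0.81), against 1.63% of all genes. At D0, 6 passed and 3 were at least 2-fold higher (0.74), against 1.39% of all genes. In each library 3 of the list passed in burst cells alone. With a floor of 50 CPM 1 was left in each library, and without the burst cells at or above 20 gate UMIs per 10000 the counts were 2 at D21 and 0 at D0.

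NF-kappa B targets were higher by less. Of 24, 15 passed the floor at D21 (median log2 ratio 0.39) and 14 at D0 (0.30). SOD2, the mitochondrial superoxide dismutase, stood at 195 CPM in burst and 68.9 CPM in other cells at D21 and at 119 and 41.8 CPM at D0. The apoptosis inhibitor BIRC3 had ratios of 1.78 and 1.62 and the inhibitor NFKBIA of 1.52 and 1.40. TNFAIP3, a feedback inhibitor, had ratios of 1.96 (1.47 to 2.57) at D21 and 0.913 (0.506 to 1.53) at D0, at under 8 CPM throughout.

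Among the 23 apoptosis and p53 target genes, 15 passed the floor in each library. In each, 1 was at least 2-fold higher, against 1.63% and 1.39% of all genes. This was PMAIP1 (NOXA), a BH3-only protein that neutralises MCL1, which stood at 398 CPM in burst and 93.8 CPM in other cells at D21 and at 337 and 71.8 CPM at D0, ratios of 4.25 (4.08 to 4.41) and 4.69 (4.50 to 4.89). CDKN1A, the best known p53 target, had ratios of 1.28 and 1.45, and BBC3 (PUMA) of 1.78 and 1.07. The list's median log2 ratio was 0.17 at D21 and 0.23 at D0. FAS, a death receptor under the floor, stood at 7.31 CPM in burst and 2.28 CPM in other cells at D21 and at 7.49 and 1.91 CPM at D0.

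The MHC class I genes were all on the same side but by small steps. Of 21, 17 passed the floor at D21 and 16 at D0, each with a ratio above 1, against 41.8% and 35.8% of all genes past the floor, and 1 in each library, the peptide-trimming enzyme ERAP2, was at least 2-fold higher (2.0 and 2.09) and passed the floor in burst cells alone. Median log2 ratios were 0.39 and 0.33. HLA-B stood at 1325 CPM in burst and 893 CPM in other cells at D21 and at 986 and 692 CPM at D0. B2M, the shared light chain, stood at 2043 and 1427 CPM at D21 and 1801 and 1197 CPM at D0. The peptide transporter TAP1 had ratios of 1.25 and 1.45, and NLRC5, the transactivator of the class, of 1.81 and 1.19. Reads of the HLA genes can be shared among near-identical copies.

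Of the 82 higher genes, 50 were in none of the lists. Some were abundant and are named here after their values were seen. IGFBP6, which binds insulin-like growth factor II, stood at 479 CPM in burst and 90.3 CPM in other cells at D21 and at 381 and 73.8 CPM at D0. SPAG9, a scaffold of JNK signalling, stood at 324 and 88.1 CPM and at 329 and 82.0 CPM, and GRB10, an adaptor that restrains insulin receptor signalling, at 216 and 57.5 CPM and at 271 and 72.0 CPM. IL7R, the interleukin-7 receptor, had ratios of 4.54 and 6.49. KLF4, an immediate early transcription factor from the lists, had ratios of 5.34 and 4.59, while the 23 immediate early genes had median log2 ratios of 0.12 and 0.08. KLF4 passed the floor in burst cells alone in both libraries and so had to differ.

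No gene was at or below 0.5 in both libraries. MMP1, a collagenase, had ratios of 0.486 at D21 and 0.328 at D0, where it stood under the floor at 3.12 CPM in burst and 9.52 CPM in other cells. The lower side held many small steps, and named after their values were seen were the ornithine decarboxylase gene ODC1 (0.646 and 0.605) and the cystine transporter gene SLC7A11 (0.677 and 0.584).

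Cell cycle genes were lower in burst cells by small steps. Of 51 G2 and M phase genes, 49 passed the floor at D21 and 49 of these had a ratio below 1, with a median log2 ratio of -0.35, and 50 passed at D0 and 48 were below 1, with a median of -0.19. Of 41 S phase genes, 34 of 35 were below 1 at D21 (median -0.31) and 33 of 33 at D0 (median -0.34). Of all genes past the floor, 58.2% at D21 and 64.2% at D0 were below 1. No cell cycle gene past the floor was at or below 0.5. TOP2A, the topoisomerase of dividing cells, stood at 267 CPM in burst and 355 CPM in other cells at D21 and at 318 and 376 CPM at D0, and TYMS, which makes thymidylate, had ratios of 0.796 and 0.780.

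The G2 and M phase genes did not follow the gate level. At D21 they summed to 6975 CPM in cells without a gate UMI, 6597 CPM above 0 and under 2 gate UMIs per 10000, and 4698 CPM at 2 to under 5. In the burst bins from low to high they summed to 4456, 5767, 5296 and 7453 CPM, so that the top bin was the highest of all. At D0 the sums were 7408, 6997 and 4750 CPM in other cells and 6357, 6133, 4925 and 8646 CPM in the burst bins. The lower level thus began in other cells at 2 to under 5 and was not found in the 46 D21 and 36 D0 cells of the top bin. The S phase genes summed to 2637 CPM at D21 and 2539 CPM at D0 in cells without a gate UMI, and to between 2019 and 2212 CPM and between 1701 and 2187 CPM in the burst bins.

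The share of burst cells differed along the same lines. Cells were ranked by S phase UMIs per 10000 and divided into 4 equal groups. In the lowest group 6.25% at D21 (5.42 to 7.15) and 6.51% at D0 (5.44 to 7.73) were burst cells, and in the highest group 2.53% (2.01 to 3.14) and 2.67% (1.99 to 3.50). By G2 and M phase UMIs, the lowest and the highest group held 6.31% (5.48 to 7.22) and 2.76% (2.21 to 3.39) at D21 and 5.29% (4.32 to 6.40) and 3.42% (2.64 to 4.34) at D0. The intervals of the lowest and highest groups did not overlap by S phase UMIs in either library, nor by G2 and M phase UMIs at D21, and overlapped slightly by G2 and M phase UMIs at D0. Ranked by depth, the 4 groups from the fewest to the most UMIs held 3.81%, 3.43%, 4.32% and 4.36% burst cells at D21 and 4.59%, 3.31%, 3.79% and 4.91% at D0.

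The line holds cells in which CEMIP and serum amyloid A transcripts prevail and cells in which AGR2 and SPANXB1 transcripts prevail, a split set from earlier results of these data. Burst cells occurred in both. At D21, 4.38% (3.91 to 4.90) of 6842 cells on the CEMIP and SAA side were burst cells, against 3.47% (2.98 to 4.01) of 5020 on the AGR2 side. At D0 the shares were 3.63% (2.88 to 4.51) of 2147 and 4.47% (3.91 to 5.07) of 5083. The intervals of the 2 states overlapped in each library. The order of the 2 shares differed between the libraries, and the difference was not tested.

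Along the gate level, genes followed different courses. ZC3HAV1 climbed at every step, at D21 44.3 CPM in cells without a gate UMI, 123 CPM at 2 to under 5, 379 CPM at 5 to under 10, 908 CPM at 10 to under 20, 1338 CPM at 20 to under 50 and 1937 CPM at 50 and over. At D0 the same bins gave 35.6, 185, 466, 806, 1273 and 1807 CPM. ISG15 climbed likewise to 4743 CPM at D21 and 3892 CPM at D0 in the top bin, and DDX58 to 658 and 601 CPM. PMAIP1 climbed to 741 and 772 CPM, against 85.4 and 64.1 CPM in cells without a gate UMI.

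CH25H was concentrated at the top. It stood at 162 CPM at D21 and 112 CPM at D0 in the 46 and 36 cells with at least 50 gate UMIs per 10000, and at 2.73 CPM and 0 CPM in those with 5 to under 10. In the top bin, 47.8% of D21 and 44.4% of D0 cells had a CH25H UMI. CXCL10 stood at 159 CPM at D21 and 16.8 CPM at D0 in the top bin, from 8 and 4 cells, and at 32.8 and 3.88 CPM at 20 to under 50. By cells it did not climb at D21, where it was seen in 17.4% of the top bin and 19.1% of the bin before, against 11.1% and 3.80% at D0. IFNL1 had UMIs only in burst cells at 20 or more gate UMIs per 10000, apart from 1 UMI in a D21 cell without gate UMIs.

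HLA-B took another course. At D21 it stood at 720.3 CPM in cells without a gate UMI, 1014 CPM above 0 and under 2, 1391 CPM at 2 to under 5, and between 1209 and 1576 CPM in the 4 bins of burst cells. At D0 the values were 454, 802 and 1254 CPM, and between 738 and 1144 CPM in burst cells. TNFSF10 likewise stood at 479 CPM at D21 and 418 CPM at D0 at 2 to under 5, and between 378 and 591 CPM and between 170.4 and 447 CPM in the burst bins. The class I gene and TRAIL were thus already high in other cells with some gate UMIs and did not climb steadily above the threshold.

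**Figure D4:**
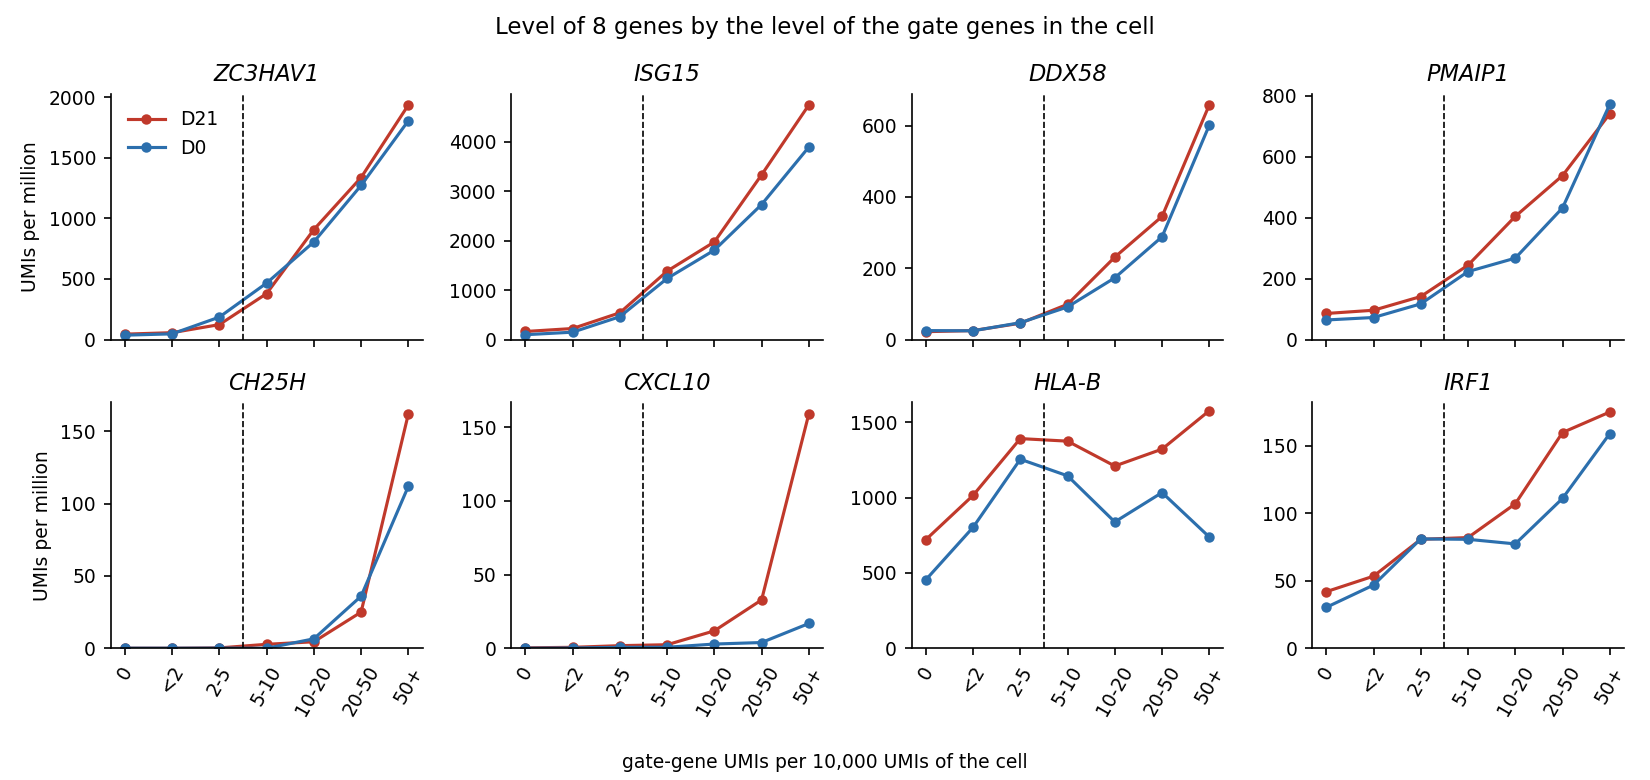
CPM of 8 genes in 7 bins of gate-gene UMIs per 10000 (left to right from 0 to 50 and over), D21 in red and D0 in blue, each point 1 summed profile and the dashed line the threshold of burst cells. ZC3HAV1, ISG15, DDX58 and PMAIP1 climb through the burst bins, CH25H and CXCL10 have their highest CPM in the top bin, and HLA-B climbs below the threshold and shows no steady climb above it. IRF1 is highest in the top bin in both libraries.

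D21 burst cells were compared with D0 burst cells gene by gene. Of 6938 genes with 20 CPM in either, 36 (0.519%) were at least 2-fold higher at D21 and 74 (1.07%) at or below 0.5, with a median log2 ratio of 0.03. The count of 36 was 58 with cells thinned to equal depth and 59 without the burst cells at or above 20 gate UMIs per 10000. Among other cells the same contrast gave 19 of 6857 genes (0.277%) higher and 48 (0.700%) lower. Both contrasts share the 2 libraries, so their ratios are set side by side and not counted as separate evidence.

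Antiviral levels in burst cells were close between the libraries. The same gate level admitted the cells of both libraries, and several antiviral genes climbed with that level. The closeness therefore cannot show whether the programme itself differed. Of the 43 antiviral genes past the floor, 31 were higher and 12 lower at D21 (72.1% higher, against 53.7% of all genes). Of the 43, 0 were at least 2-fold higher and 0 at or below 0.5. The median log2 ratio was 0.19 in burst cells, and 0.17 over the 25 past the floor in other cells. ZC3HAV1 had a D21 to D0 ratio of 0.997 in burst cells, HERC5 of 1.18, ISG15 of 1.13 (1.10 to 1.15) and RSAD2 of 1.32. In other cells the same ratios were 1.08, 1.03, 1.45 and 3.00. None of the sensor or signalling genes past the floor was at least 2-fold apart in burst cells.

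Of the 25 chemokine and cytokine genes, 8 passed the floor in burst cells, 6 of them higher and 2 lower at D21, against 53.7% higher of all genes, with a median log2 ratio of 0.66. The 3 at least 2-fold higher were CXCL10, CXCL8 and IL32, the last at 81.6 CPM at D21 and 33.7 CPM at D0. CSF1 stood at 28.1 CPM at D21 and 39.7 CPM at D0, and CSF2 at 20.8 and 26.0 CPM. CXCL10 stood at 24.2 CPM at D21 and 3.62 CPM at D0, a ratio of 6.67 (4.49 to 10.2), against 3.61 (2.32 to 5.81) in other cells. It was 4.03 without the burst cells at or above 20 gate UMIs per 10000. CXCL8 stood at 24.2 CPM at D21 and 5.99 CPM at D0 in burst cells, a ratio of 4.03 (2.92 to 5.66), against 1.91 (1.82 to 2.01) in other cells. CCL5 and CXCL11 were under the floor. CCL5 had ratios of 4.03 (2.76 to 6.03) in burst and 3.41 (2.31 to 5.16) in other cells, and CXCL11 of 2.19 (1.65 to 2.95) and 4.17 (2.62 to 6.89). CX3CL1, at 3.00 CPM at D21 and 3.87 CPM at D0, went the other way. Since 1 cell held 25.9% of the CXCL10 UMIs of D21 burst cells, the counting interval understates the spread between cells.

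The other genes that led the D21 side in burst cells were high at D21 in other cells as well. MMP1 stood at 42.2 CPM in D21 and 3.12 CPM in D0 burst cells, a ratio of 13.5 (8.99 to 21.2), against 9.12 (8.67 to 9.60) in other cells. The ratio in burst cells was 22.4 with a threshold of 10 gate UMIs per 10000, 27.6 without IFIT3 in the gate and 26.7 with cells thinned to equal depth. The antisense transcript AF121898.1 had ratios of 8.87 in burst and 10.4 in other cells. BMPER, a modulator of bone morphogenetic proteins, had ratios of 5.43 and 3.06, PRSS2, a trypsinogen with close paralogues, of 4.22 and 2.65, TMEM238 of 4.04 and 3.26, and SAA2, nearly identical to SAA1, of 3.43 and 3.65. These genes thus set D21 apart from D0 in both kinds of cell.

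On the D0 side stood LAPTM5, a lysosomal membrane protein, at 6.40 CPM in D21 and 25.1 CPM in D0 burst cells, a ratio of 0.255 (0.183 to 0.350) against 0.254 in other cells. SLCO4A1, an organic anion transporter, had ratios of 0.289 in burst and 0.481 in other cells, CFP (properdin) of 0.313 and 0.395, and AKR1C3, a steroid-converting reductase with close paralogues, of 0.341 and 0.341. TUBA1A had ratios of 0.343 and 0.364, ENPP1 of 0.348 and 0.451, and ACADVL, of fatty acid oxidation, of 0.349 and 0.389. INSIG1, which restrains cholesterol synthesis and is itself a sterol-regulated gene, had ratios of 0.353 and 0.313. Of 22 sterol genes, 20 passed the floor in burst cells and all 20 were lower at D21, against 46.3% of all genes past the floor, 6 of them at or below 0.5, with a median log2 ratio of -0.77, against -0.90 over 21 genes in other cells.

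**Figure D5:**
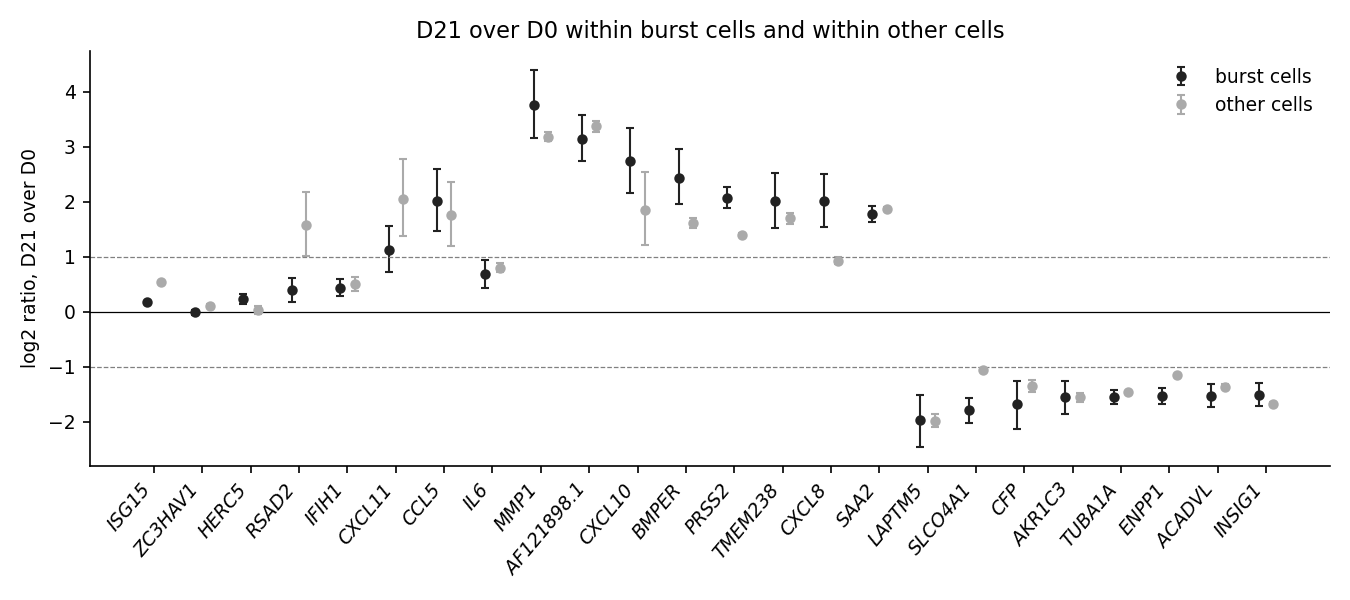
log2 ratio of D21 to D0 with exact 95% counting intervals within burst cells (black) and within other cells (grey), for 8 antiviral genes, chemokines and cytokines and for the genes with the highest and lowest ratios in burst cells; dashed lines mark 2-fold. ZC3HAV1 lies near 0 with a ratio of 0.997 in burst cells, and CXCL10 lies above 2-fold in both kinds of cell (6.67 and 3.61).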

How the data were processed

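The UMI counts are those the authors deposited, 1 unfiltered gene-by-barcode matrix per library, made with Cell Ranger on GRCh38 (submitters' processing notes); for the gene annotation and the alignment settings, no source used here gives them. The libraries held 199817213 UMIs at D21 and 199799447 UMIs at D0. Cells were taken by the stated limits, which removed 38 D21 and 11 D0 barcodes above the UMI minimum. Counts were summed over cells and given as CPM (UMIs per 1000000), without a pseudocount. Ratios carry exact conditional Poisson intervals and shares Clopper-Pearson intervals, with a floor of 20 CPM in either group. Counting was tested on simulated data. Genes were named by rule: the 12 highest and 8 lowest past 2-fold in both libraries, the 8 highest and 8 lowest of D21 over D0, every ligand, sensor and signalling gene, and up to 8 members of each other list. The burst cells and the 27 lists were chosen with earlier results of these data known. Scrublet (in scanpy 1.11.5) scored doublets. Python 3.11.15, numpy 2.4.6, pandas 2.3.3, scipy 1.17.1 and matplotlib 3.10.9 were used. Promoter windows are from RefSeq (GRCh38.p14), matched by gene ID or symbol for 68 of the 82 higher genes. Alternatives changed the gate, the cells, the depth, the floor and the denominator. Some results are not reported here.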

Additional observations from a re-analysis of the deposited data

How the results depend on the processing

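The contrasts have 1 library on each side, so the spread between cultures is unknown, no value carries a test, and genes under about 20 CPM in burst cells rest on few UMIs. No paired analysis was possible because each condition has 1 library and no result comes from a test. Over 20 alternatives 1119 values were recomputed. They covered 42 gene ratios, mainly of genes named for the highest or lowest ratios, and none of these changed direction. All 42 were far from 1 as reported. For genes with ratios near 1 the direction was not tested under the alternatives. Of 436 shares and counts 375 stayed near their value and 61 moved as given below. Of 683 recomputed gene ratios 514 stayed within the counting interval and 169 left it; the causes were not tested beyond what the settings themselves change.

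At 3 gate UMIs per 10000, 6.96% of D21 and 6.69% of D0 cells were burst cells. Then 68 genes were at least 2-fold higher at D21 and 53 in both libraries (49 of them among the 82), 2 were at or below 0.5 at D21, and 1 signalling gene was 2-fold higher at D0. At 10 per 10000 the shares were 2.38% and 2.68%, with 2, 4 and 1 genes at or below 0.5 at D21, at D0 and in both. Without IFIT1 in the gate the shares were 3.52% at D21 and 3.70% at D0, without IFIT2 3.19% and 3.50%, without IFIT3 2.63% and 3.03% (with 5 genes at or below 0.5 at D0), and without OASL 3.46% and 3.63%. With cells thinned to 1 common number of UMIs, the D21 minimum, the shares were 4.73% and 5.02%, 4 genes at D21 and 6 at D0 were at or below 0.5, and 58 were at least 2-fold higher in D21 than in D0 burst cells. The count of genes at or below 0.5 was 0 at D21 with the D0 UMI minimum in both libraries, 0 at D21 and 1 at D0 without the 6% highest doublet scores, and 2 at D0 with the mean over cells.

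A floor of 50 CPM left 62 genes at least 2-fold higher at D21, 52 at D0 and 45 in both, with 14 antiviral genes at D21, 2 sensors, 1 signalling gene and 1 cytokine in each library, and 17 and 16 S phase genes below 1. With no floor other than 20 UMIs, 1095 genes at D21, 948 at D0 and 343 in both were higher, 1354, 1509 and 296 were at or below 0.5, and the higher antiviral genes were 34 and 32 and the chemokines and cytokines 9 and 7. Alternatives chosen after seeing the data were CXCL10, CXCL11 and CCL5 without their strongest cell (CXCL10 is in the report), a gate with at least 2 gate genes, which left 81 higher genes in both libraries, and burst cells without the strongest. Leaving out burst cells from 20 gate UMIs per 10000 gave shares of 2.77% and 2.66%, 54 higher genes at D21, 41 at D0 and 34 in both, 0 at or below 0.5 at D21, 2 and 0 chemokines and cytokines, 0 signalling genes at D0, and 59 genes higher in D21 than in D0 burst cells.

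Of the 42 gene ratios 16 moved by over 1.5 times under an alternative. Without the burst cells from 20 gate UMIs per 10000, the ratios of burst to other cells at D21 and D0 were 88.2 and 73.7 for CH25H, 50.4 and 89.1 for RSAD2, 9.57 and 7.51 for IFIH1, 9.73 and 7.93 for HERC5, and 5.43 and 5.01 for EPSTI1, and at D0 10.7 for HERC6 and 8.65 for HS6ST3. CH25H had ratios of 312 and 848 at D0 with thresholds of 3 and 10 and of 329 at D21 with thinned cells, and RSAD2 of 55.8 at D21 without OASL in the gate and of 316 at D0 with the mean over cells. Between D21 and D0 burst cells, CXCL10 and MMP1 moved as given in the report, BMPER had 3.48 with a threshold of 3, and SAA2 had 5.42 with a threshold of 10 and 5.50 without IFIT2 in the gate.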

Other observations

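Neighbouring genes were looked up after the leading genes had been seen. Gate genes aside, 13 of the 82 higher genes (15.9%) had another of them within 200 kb, against 139 of 6471 other genes past the floor (2.15%). Of the 82, 43 passed the floor in burst cells alone in both libraries. The pairs named below include paralogues and overlapping transcripts, so the shares are a description and no result about neighbourhood. CH25H, not among the 13, lies near gate genes, on chromosome 10 on the minus strand, 76380 bases from IFIT2, with IFIT3 and IFIT1 beyond it on the plus strand. In the same stretch FAS had ratios of burst to other cells of 3.21 at D21 and 3.91 at D0, LIPA of 1.89 and 1.75, and IFIT5 of 2.01 and 1.29. LIPA overlaps the IFIT cluster on the opposite strand, and whether any reads were shared was not tested. PANK1 had ratios of 0.927 and 0.594 and KIF20B of 0.848 and 0.868, so not every gene of the stretch was higher in burst cells. Neighbours among the higher genes were IRF1 and the overlapping C5orf56, HERC5, HERC6 and PPM1K, SAMD9 and SAMD9L, DDX60 and DDX60L, TTC28 and CHEK2, and CFAP54 and NEDD1. CHEK2, a checkpoint kinase of the DNA damage response, stood at 45.3 CPM in burst and 14.8 CPM in other cells at D21 and at 35.4 and 12.5 CPM at D0, and TTC28 at 171 and 45.0 CPM and at 149 and 32.7 CPM.

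At equal depth, with each cell thinned to 1 common number of UMIs, the D21 minimum, ZC3HAV1 was seen in 79.3% of burst and 22.4% of other cells at D21 and in 83.3% and 18.9% at D0. CXCL10 was seen in 6.24% and 0.250% at D21 and 1.61% and 0.153% at D0. Thinned burst cells had a median of 2319 genes and other cells 2324 at D21, and 2312 and 2354 at D0.

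Stress lists differed in direction in burst cells, and their medians were small. Of the 18 genes of the integrated stress response, 11 passed the floor at D21 and 10 at D0, with median log2 ratios of -0.16 and -0.12, although ATF3 alone had ratios of 2.60 and 2.05. The 13 heat shock genes had medians of -0.21 and -0.07, and the 14 hypoxia genes of -0.11 and -0.07. Heat shock genes below 1 were 10 of 12 at D21 and 8 of 13 at D0 (83.3% and 61.5%), against 58.2% and 64.2% of all genes. The 14 ER chaperone genes had medians of 0.07 and 0.14, where XBP1 had ratios of 1.68 and 1.83. Of these, 8 of 11 at D21 and 13 of 14 at D0 were above 1 (72.7% and 92.9%), against 41.8% and 35.8% of all genes. MHC class II genes had medians of 0.32 over 4 genes and 0.47 over 5, all of them above 1. The 13 mitochondrially encoded genes had medians of -0.03 and -0.04.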
